A study of Mus musculus with 6 samples.

Results

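Markers of liver sinusoidal endothelial cells were measured on 6 one-colour Affymetrix liver arrays, 3 from A/J-12SM and 3 from A/J mice. The markers are 10 genes given by name, Stab1, Stab2, Lyve1, Clec4g, Pecam1, Kdr, Cdh5, Tek, Eng and Fcgr2b, and every probe set that the platform annotation assigns to exactly 1 of them was used. This gave 18 of the 45037 probe sets compared, with 1 to 5 per gene, and 10 of the 18193 genes. A/J-12SM is a consomic strain that carries chromosome 12 of SM/J on the A/J background, and A/J is the recipient strain. All mice were males that received a high-fat diet for 7 weeks, from 6 to 13 weeks of age in the schedule of the study's methods, and no array of mice on another diet was compared. Each array holds RNA combined from 3 mice, so that an array stands for a group of animals and not for a single mouse. None of the 10 genes lies on chromosome 12, the chromosome by which the strains differ.

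Liver sinusoidal endothelial cells line the capillaries between the plates of hepatocytes. They lack a basement membrane, carry open pores called fenestrae, and clear waste macromolecules from blood through endocytic receptors. Stabilins, Lyve1, Clec4g and the Fc receptor Fcgr2b are receptors of this kind. Kdr, Tek and Eng are receptors for growth factors that maintain vessels, and Pecam1 and Cdh5 hold endothelial cells together at their junctions. None of these genes is restricted to the sinusoid. Kupffer cells and other macrophages can also express Stab1, Lyve1, Pecam1, Eng and Fcgr2b, and B cells express Fcgr2b.

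The values are MAS 5 signals, 1 per probe set and array, which were brought to log2 and to a common distribution by quantile normalization. Before this step the trimmed mean signals were 171 to 186 in A/J-12SM and 201 to 213 in A/J arrays, and in log2 units A/J-12SM minus A/J had a median of -0.22 over all probe sets, against 0.04 for spiked bacterial transcripts. Arrays correlated with r of 0.921 to 0.933 within a strain and 0.922 to 0.930 between strains. The third A/J-12SM array had a ratio of 5′ to 3′ actin signal of 0.423, against 0.553 to 0.590 in the other 5. As a check of the tissue label, all 11 hepatocyte markers lay at or above the median brightness of all probe sets. So did the brightest probe set of each of the 10 endothelial markers, and this probe set stands for its gene below.

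For most sinusoidal endothelial markers, A/J-12SM and A/J liver did not differ beyond the spread between arrays. The median log2 difference of the 10 genes was 0.01, with 5 higher and 5 lower in A/J-12SM, and the median of all genes was -0.01. The markers Fcgr2b, with a higher signal in A/J-12SM (0.37 on the log2 scale), and Lyve1, with a lower signal (-0.45), stood farthest from 0. No gene of the 10 was called at an adjusted p under 0.05 from limma, where 0.066% of all genes were called. At an unadjusted p under 0.05 there was 1, Fcgr2b, against 6.78% of all genes. The methods' t-test gave 2 at this level, Fcgr2b and Lyve1, against 1122 of the 18193 genes, and 0 after Benjamini-Hochberg adjustment. In 2 of the 10 genes the strains were separated without overlap, against 12.3% of all genes. Of these, Fcgr2b was higher (5.97% of all genes) and Lyve1 lower (6.35% of all genes). These shares are near the background, so the counts do not set the markers apart from other genes. By single probe set, 0 of the 18 were called (0.0555% of all probe sets) and 2 had an unadjusted p under 0.05 (6.23% of all), 1 higher (3.23% of all) and 1 lower (3.01% of all). In bulk liver RNA, fewer cells of a type and less RNA per cell cannot be told apart.

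**Figure D1:**
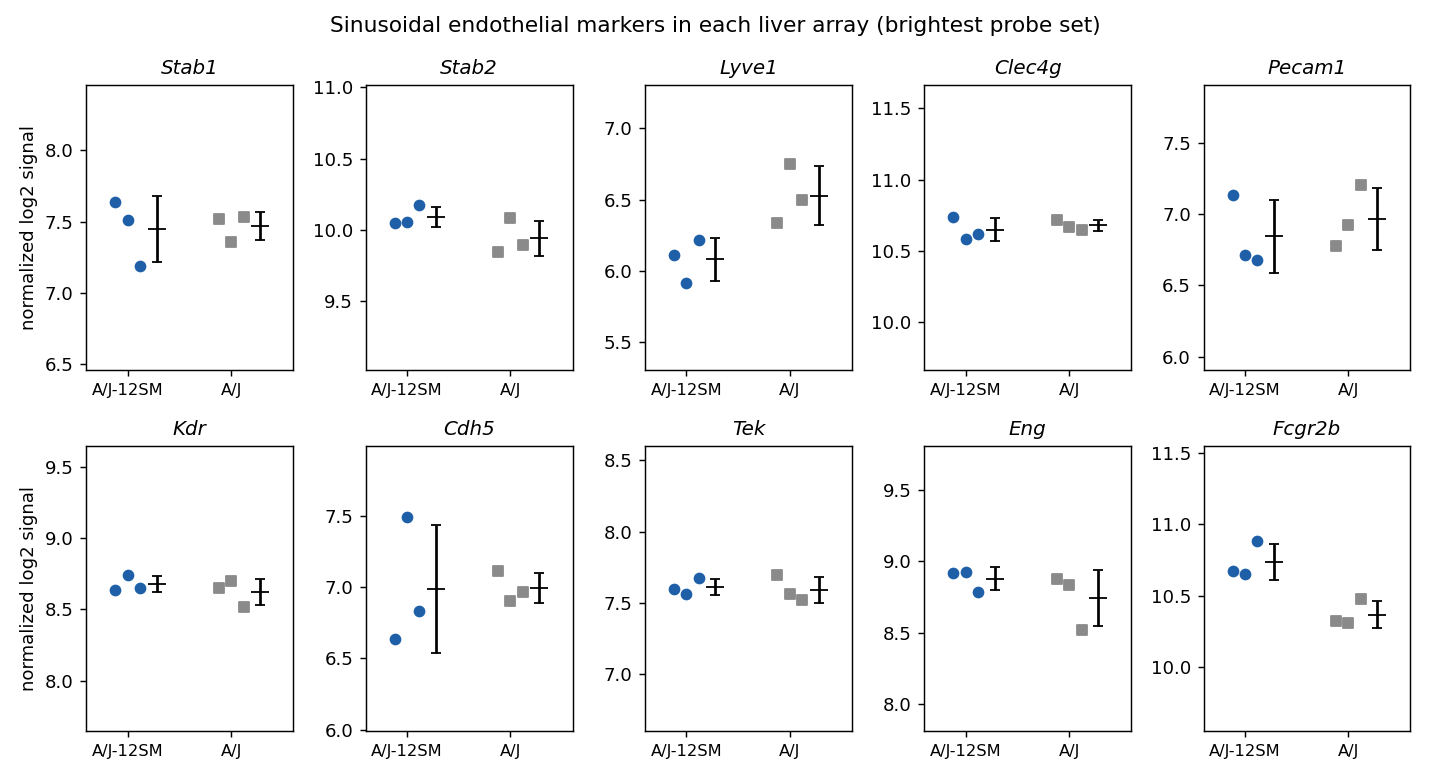
Normalized log2 signal on the y axis (every panel spans 2 units) for the 10 markers by their brightest probe sets in A/J-12SM (blue circles) and A/J (grey squares) liver; points are single arrays, replicates 1 to 3 from left to right, and bars beside them are means and SDs of 3 arrays. The points of Fcgr2b and Lyve1 separate by strain, and those of the other 8 genes overlap.

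Among the endocytic receptors, Stab2 and Clec4g were measured with little scatter. Stab2, stabilin-2, takes up hyaluronan and other glycosaminoglycans (chr10:86841194-87008038 in GRCm38.p6). Its log2 signals were 10.05, 10.05 and 10.17 in the A/J-12SM arrays, against 9.84, 10.08 and 9.89 in the A/J arrays. The second A/J array lay as high as the A/J-12SM arrays, so the strains overlapped. The difference was 0.15 (SE 0.09, 95% interval -0.06 to 0.36) on the log2 scale, and it did not pass the test (adjusted p = 0.84 from limma). Clec4g, a C-type lectin known as LSECtin (chr8:3707066-3720695), had log2 signals of 10.74, 10.59 and 10.62 in the A/J-12SM arrays, against 10.72, 10.67 and 10.65 in the A/J arrays. All 6 arrays of Clec4g lay close together. Its difference of -0.03 (SE 0.08, 95% interval -0.21 to 0.15) bounds the ratio of the strains to 0.86 to 1.11, under quantile normalization only. A second Clec4g probe set was below the median brightness and gave 0.76 with a wide error (SE 0.65). As deposited, the signals of the brighter set were 1533.8, 1476.1 and 1488.2 in A/J-12SM and 1873.4, 1684.5 and 1739.6 in A/J, without overlap. The log2 difference on that scale was -0.23 (adjusted p = 0.329 from limma), near the median of -0.22 over all probe sets.

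Stab1, stabilin-1, is a related scavenger receptor that takes up modified lipoproteins and secreted proteins (chr14:31139017-31168651). Its log2 signals were 7.64, 7.51 and 7.19 in the A/J-12SM arrays, against 7.52, 7.36 and 7.53 in the A/J arrays. The third A/J-12SM array, the one with the low actin ratio, had the lowest signal, and the others overlapped. The difference was -0.02 (SE 0.15, 95% interval -0.37 to 0.32) with adjusted p = 0.988 from limma, and 0.11 without that array.

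The promoters of Stab2, Clec4g and Fcgr2b are shown, because the first 2 are receptors of the sinusoid with narrow intervals around their small differences and the third has the largest positive difference of the 10 genes. Each is 300 bases from RefSeq (GRCm38.p6), from 250 before to 50 after the start site, and 7 of the 10 markers had an entry. The bases are read 5′ to 3′ on the strand of the gene. For Stab2 and Clec4g this start site lies inside the gene coordinates given above, so part of the bases before it falls within them. Capitals mark matches to the ETS motif AGGAAG or its reverse complement CTTCCT, as factors of the ETS family act in endothelial genes.
Stab2 (chr10:87007893-87008192, minus strand): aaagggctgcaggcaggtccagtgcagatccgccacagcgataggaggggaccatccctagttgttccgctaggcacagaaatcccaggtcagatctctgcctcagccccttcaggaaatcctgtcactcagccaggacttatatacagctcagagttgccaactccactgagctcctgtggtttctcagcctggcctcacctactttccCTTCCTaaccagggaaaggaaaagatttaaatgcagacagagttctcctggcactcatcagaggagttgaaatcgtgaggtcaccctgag
Clec4g (chr8:3720602-3720901, minus strand): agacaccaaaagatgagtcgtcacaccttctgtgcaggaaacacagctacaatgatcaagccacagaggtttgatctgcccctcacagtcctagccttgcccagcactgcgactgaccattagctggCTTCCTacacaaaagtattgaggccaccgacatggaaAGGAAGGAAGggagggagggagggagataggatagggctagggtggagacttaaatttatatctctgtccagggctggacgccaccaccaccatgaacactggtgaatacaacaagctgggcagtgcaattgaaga
Fcgr2b (chr1:170976022-170976321, minus strand): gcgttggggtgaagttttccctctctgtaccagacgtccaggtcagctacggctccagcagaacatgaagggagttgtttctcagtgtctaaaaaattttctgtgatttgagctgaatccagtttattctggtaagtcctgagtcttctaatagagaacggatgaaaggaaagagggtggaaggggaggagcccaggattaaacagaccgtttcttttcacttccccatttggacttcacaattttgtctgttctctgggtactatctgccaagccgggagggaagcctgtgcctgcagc
The Stab2 window holds 1 match and the Clec4g window 3, of which 2 overlap and read as a run, and the Fcgr2b window holds none. Among the 7 marker promoters 4 had an ETS match, those of Stab1, Stab2, Clec4g and Eng, and 35.4% of the 32851 promoters in the table had one. A GATA motif, AGATAA or TGATAA on either strand, was found in 1 of the 7, that of Tek, and in 18.6% of all promoters. A match is a run of letters and was not tested as a binding site.

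Fcgr2b had a higher signal in A/J-12SM liver. It encodes the inhibitory Fc receptor for immunoglobulin G, which clears immune complexes in the sinusoid (chr1:170960558-170976071). The log2 signals of its brightest probe set, an _s_at set, were 10.67, 10.65 and 10.88 in the A/J-12SM arrays, against 10.32, 10.30 and 10.47 in the A/J arrays, and every A/J-12SM array lay above every A/J array. The means were 10.73 ± 0.12 in A/J-12SM and 10.37 ± 0.09 in A/J (SD, n = 3 each). The difference was 0.37 (SE 0.09, 95% interval 0.16 to 0.58) on the log2 scale, or 1.29-fold (95% interval 1.11 to 1.50). The unadjusted p from limma was 0.00324, and after adjustment over all probe sets the gene did not pass (adjusted p = 0.485).

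After quantile normalization the 4 bright Fcgr2b probe sets all had higher means in A/J-12SM liver but by different amounts. The differences of the others were 0.29 (SE 0.15, 95% interval -0.04 to 0.62) for an _x_at set, 0.17 (SE 0.09, 95% interval -0.03 to 0.37) for an _a_at set designed from the same sequence record as these 2, and 0.08 (SE 0.09, 95% interval -0.13 to 0.28) for an _a_at set from another record. The strains did not overlap in the _a_at set of the shared record, by 9.70, 9.79 and 9.69 in A/J-12SM against 9.64, 9.58 and 9.45 in A/J, and they overlapped in the other 2. The endings _s_at and _x_at mark sets whose probes can also match other transcripts. The part of other transcripts in these values was not tested. The fifth set was near the bottom of the array (log2 mean 1.28 ± 2.34 in A/J-12SM and -0.03 ± 0.52 in A/J) and carries no usable value. On the deposited scale the brightest set read 1471, 1545 and 1774 in A/J-12SM and 1408, 1314 and 1534 in A/J, where the strains overlap, and the log2 difference was 0.17. The mean of the _x_at set was also higher in A/J-12SM on that scale, but those of both _a_at sets were lower. The _a_at set of the shared record read 737.3, 857.6 and 776.3 in A/J-12SM against 894.5, 795.7 and 762.5 in A/J. The other _a_at set read 921.0, 1048.8 and 937.9 in A/J-12SM against 1090.8, 946.3 and 1158.7 in A/J.

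Lyve1, a hyaluronan receptor of sinusoidal and lymphatic endothelium (chr7:110850607-110862953), had lower signals in A/J-12SM liver by both of its probe sets. The brighter set had log2 signals of 6.11, 5.92 and 6.21 in the A/J-12SM arrays, against 6.34, 6.75 and 6.50 in the A/J arrays. The dimmer set had 4.97, 5.19 and 5.83 in the A/J-12SM arrays, against 6.07, 6.47 and 6.18 in the A/J arrays. In both sets every A/J-12SM array lay below every A/J array, and 2 of the 18 member probe sets were higher and 2 lower without overlap, against 6.13% and 5.83% of all probe sets. The difference was -0.45 (SE 0.21, 95% interval -0.91 to 0.02) in the brighter set, with an unadjusted p of 0.0577 and adjusted p = 0.804 from limma. In the dimmer set it was -0.91 (SE 0.29, 95% interval -1.57 to -0.25), a ratio of 0.53-fold (95% interval 0.34 to 0.84), with an unadjusted p of 0.0118 and adjusted p = 0.663 from limma. Both probe sets were designed from the same sequence record and are not independent measurements. Over the alternatives tried, the difference of Lyve1 by its brighter set or the mean of both ranged from -0.68 to -0.34. The deposited signals of the brighter set were 59.6, 60.8 and 66.8 in A/J-12SM and 93.3, 117 and 91.8 in A/J. For a single gene an exact two-sided permutation test gives p = 0.1 for Fcgr2b and Lyve1, which is the smallest that 3 arrays against 3 allow.

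**Figure D2:**
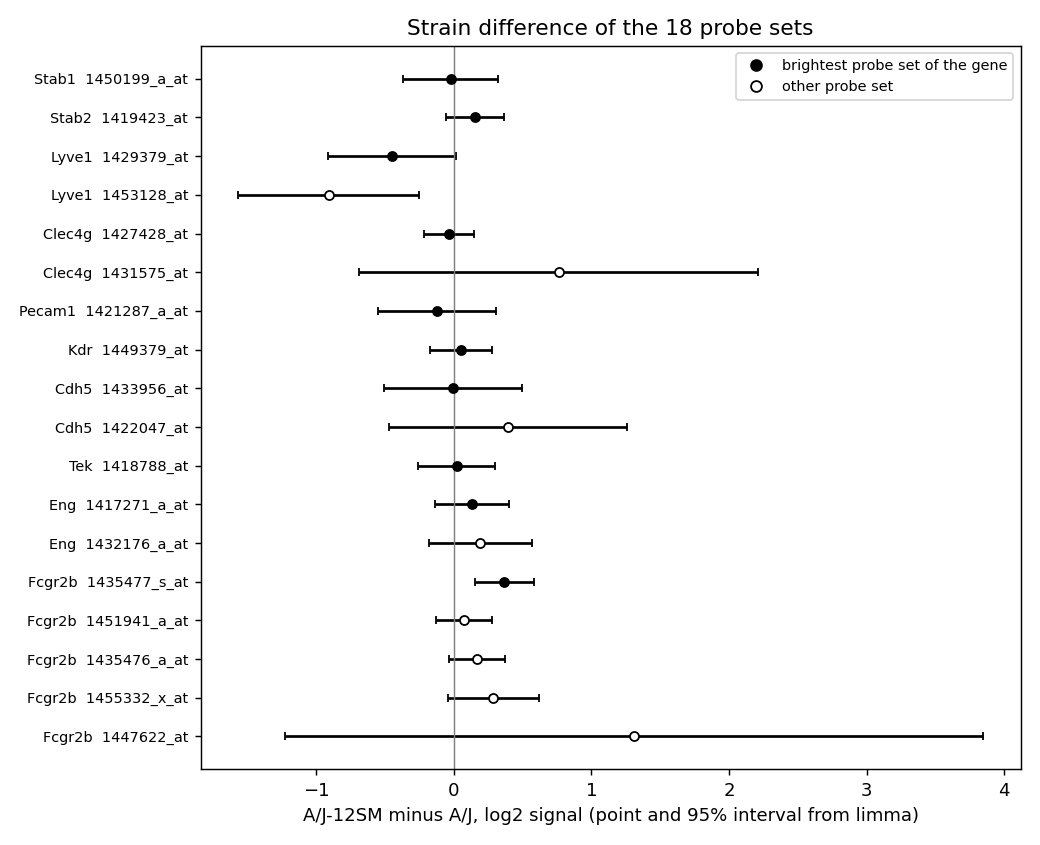
Difference in log2 signal (A/J-12SM minus A/J, x axis) of each of the 18 probe sets (y axis) with its 95% interval from limma; filled points are the brightest probe set of a gene and open points the others. The intervals of the brightest Fcgr2b set (0.16 to 0.58) and the dimmer Lyve1 set (-1.57 to -0.25) leave out 0 before adjustment, and those of the dim sets of Clec4g and Fcgr2b are the widest.

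Among the growth factor receptors, Kdr and Tek did not differ beyond the spread of the arrays. Kdr, the main receptor for vascular endothelial growth factor A on endothelial cells (chr5:75932827-75979072), had log2 signals of 8.64, 8.74 and 8.65 in the A/J-12SM arrays, against 8.65, 8.69 and 8.52 in the A/J arrays. Tek, the angiopoietin receptor Tie2 (chr4:94739086-94874976), had 7.60, 7.57 and 7.67 in the A/J-12SM arrays, against 7.69, 7.56 and 7.52 in the A/J arrays. The strains overlapped in both genes, and the 6 arrays lay close together in each. The difference was 0.05 (SE 0.10, 95% interval -0.17 to 0.28) for Kdr and 0.02 (SE 0.12, 95% interval -0.26 to 0.30) for Tek. Under quantile normalization this bounds the ratio of A/J-12SM to A/J to 0.89 to 1.22 for Kdr and 0.84 to 1.23 for Tek.

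Eng, endoglin, is a co-receptor for BMP9 and BMP10 on endothelial cells (chr2:32646595-32682669). Its brightest probe set had log2 signals of 8.92, 8.93 and 8.78 in the A/J-12SM arrays, against 8.87, 8.84 and 8.52 in the A/J arrays, with the third A/J array lowest and the other 5 close together. The difference was 0.13 (SE 0.12, 95% interval -0.13 to 0.40), and 0.02 without the third A/J array. The other Eng probe set gave 0.19 (SE 0.17, 95% interval -0.18 to 0.57), and its strains overlapped as well.

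The junction genes had wider scatter. Cdh5, vascular endothelial cadherin of the adherens junction (chr8:104101613-104144504), had log2 signals of 6.63, 7.49 and 6.84 in the A/J-12SM arrays, against 7.11, 6.90 and 6.97 in the A/J arrays. The A/J-12SM arrays of Cdh5 enclosed all A/J arrays, with the first lowest and the second highest. The difference was -0.01 (SE 0.22, 95% interval -0.51 to 0.49), and it was -0.26 without the second and 0.17 without the first A/J-12SM array. A dimmer Cdh5 probe set gave 0.40 (SE 0.39, 95% interval -0.47 to 1.26). Pecam1, an adhesion molecule of endothelial cells, platelets and leukocytes (chr11:106654213-106715281), had log2 signals of 7.14, 6.71 and 6.68 in the A/J-12SM arrays, against 6.78, 6.92 and 7.20 in the A/J arrays. The first A/J-12SM array lay near the highest A/J array and the other 2 near the lowest. The difference was -0.12 (SE 0.19, 95% interval -0.55 to 0.31) with adjusted p = 0.941 from limma, so that ratios of 0.68 to 1.24 remain within its interval.

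The 10 markers did not share one pattern across arrays. With the mean of each gene set to 0 across arrays, the mean of the 10 genes was 0.02, 0.02 and -0.02 in the A/J-12SM arrays, against -0.01, 0.01 and -0.02 in the A/J arrays, so the strains overlapped. After quantile normalization the summed linear signal of the markers was 5841 to 6096 in A/J-12SM and 5443 to 5552 in A/J arrays, without overlap. The brightest genes count most in such a sum. No sum of any list was taken on the deposited scale, where most of the markers were lower in A/J-12SM. Fcgr2b, among the brightest of the 10, was the only marker higher in A/J-12SM without overlap (0.37). Stab2 (0.15) and Clec4g (-0.03), also among the brightest, overlapped between the strains. A sum without Fcgr2b was not taken, so the separation is not a result for the markers as a set. The summed signals of the stellate cell list (8766 to 9673 in A/J-12SM and 7499 to 8746 in A/J) and of the hepatocyte list (141270 to 145650 in A/J-12SM and 137370 to 140340 in A/J) were also higher in A/J-12SM without overlap. The part of these cells in the sum of the markers was not tested. Of the 45 pairs of markers, 21 had a positive and 24 a negative Pearson r over the 6 arrays, with a range of -0.70 to 0.85 and a median of -0.15. All pairs share the same arrays and normalization, and 6 points give loose correlations. The genes with a pattern most like the mean of the markers were Keg1 (r = 0.99), Nop10 (r = 0.99), Rftn1 (r = 0.99), Ankrd54 (r = 0.98) and Trim3 (r = 0.98) over 6 arrays, out of 11032 genes searched, of which 90 had r above 0.9. As the mean of the markers varied so little, this ranking is a description only.

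**Figure D3:**
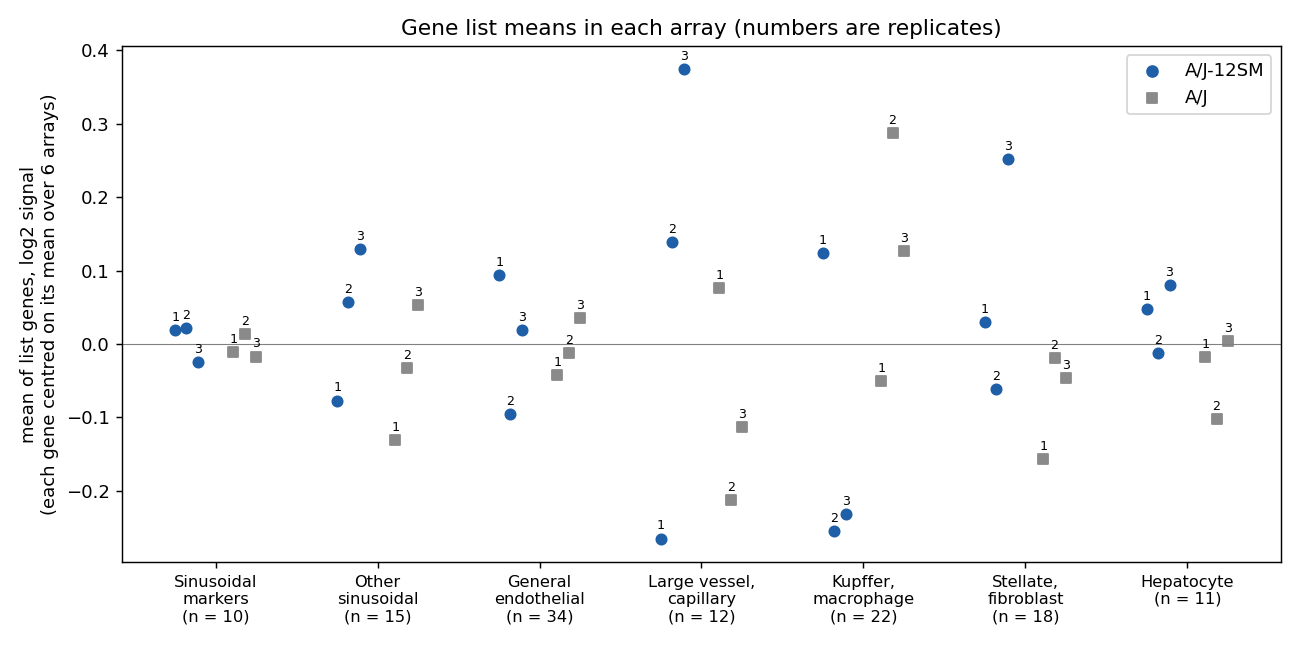
Mean log2 signal of the genes in each list (y axis, centred per gene) for 7 lists (x axis, with the number of genes) in A/J-12SM (blue circles) and A/J (grey squares) arrays; points are arrays, with the replicate number above. The sinusoidal endothelial markers stay between -0.02 and 0.02, and the Kupffer cell and macrophage list ranges from -0.26 to 0.29.

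Among other genes of sinusoidal endothelium most differences were above 0. Of 16 listed genes 15 were measured, and 13 had higher and 2 lower values in A/J-12SM, with a median of 0.12, where 49.1% of all genes were higher. Wnt9b, a Wnt ligand named after its value was seen, was below the median brightness and had overlapping arrays. The differences of the list ranged from -1.11 for Wnt9b (SE 0.61) to 0.83 for Rspo3. None was called by limma, and 1 had an unadjusted p under 0.05, a share near the 6.78% of all genes. This was Rspo3, an R-spondin that amplifies Wnt signals and is made by endothelial cells of the central vein. Its log2 signals were 6.39, 6.81 and 7.23 in the A/J-12SM arrays, against 5.73, 6.11 and 6.12 in the A/J arrays, without overlap. The difference was 0.83 (SE 0.25, 95% interval 0.27 to 1.38) with adjusted p = 0.622 from limma. F8, coagulation factor VIII, which sinusoidal endothelium makes, had a difference of 0.30 (SE 0.16, 95% interval -0.07 to 0.67) and overlapping arrays. The median of this list was -0.11 on the deposited scale.

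In the 34 genes of endothelium in general the median difference was 0.04, with 20 higher and 14 lower values and 2 at an unadjusted p under 0.05, both higher (3.39% of all genes in this direction). Mmrn2, multimerin-2 of the vessel matrix, had 0.81 (SE 0.33, 95% interval 0.07 to 1.55), and Mcam, an adhesion molecule, had 0.34 (SE 0.27, 95% interval -0.27 to 0.95), and both had overlapping arrays. The other gene past that level was Ptprb, an endothelial phosphatase, at 0.30 (SE 0.10, 95% interval 0.07 to 0.52), named after its value was seen. The 12 genes of large vessels and capillaries had a median of 0.23, with 8 higher and 4 lower values, and their array means overlapped widely. Ephb4, a receptor of venous endothelium, had log2 signals of 7.34, 7.15 and 7.09 in the A/J-12SM arrays, against 6.90, 6.75 and 6.85 in the A/J arrays and a difference of 0.36 (SE 0.15, 95% interval 0.02 to 0.70). Vwf, von Willebrand factor, had 0.33 (SE 0.31, 95% interval -0.37 to 1.03). The median of the 12 was -0.04 without the third A/J-12SM array, -0.02 without the second A/J array and -0.03 on the deposited scale. Of 3 lymphatic genes 2 were measured, both below the median brightness, with differences of -0.19 for Pdpn and 0.42 for Mmrn1, which the rule for named genes leaves out as dim.

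The ligands, co-receptors and partners of the markers were 27 genes, of which 14 had higher and 13 lower values, with a median of 0.03. None was called by limma, and 3 had an unadjusted p under 0.05, all lower, against 3.4% of all genes in this direction. Nrp2, neuropilin-2, is a co-receptor for vascular endothelial growth factors. Its log2 signals were 7.81, 7.80 and 7.58 in the A/J-12SM arrays, against 8.31, 8.24 and 8.37 in the A/J arrays, and the strains did not overlap. The difference was -0.58 (SE 0.12, 95% interval -0.85 to -0.31) on the log2 scale, with an unadjusted p of 0.000733 and adjusted p = 0.317 from limma. Fcgr1, an activating Fc receptor of macrophages, had -0.56 (SE 0.24, 95% interval -1.10 to -0.03) with adjusted p = 0.796 from limma and overlapping arrays.

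The other Fc receptor genes of that list are given because immunoglobulin G is the ligand of these receptors and of Fcgr2b, a choice made after their values were seen. Fcgr4 had a difference of -0.42 (SE 0.25, 95% interval -0.98 to 0.13), and Fcgr3 had -0.12 (SE 0.13, 95% interval -0.41 to 0.17). Fcer1g, the signalling chain that these activating receptors share, had -0.25 (SE 0.20, 95% interval -0.69 to 0.19). These genes all had lower means in A/J-12SM as did Fcgr1, while Fcgr2b had a higher one, and the strains overlapped in each of these 4 activating genes. The third gene with an unadjusted p under 0.05, Ptpn6, encodes SHP-1, a phosphatase of inhibitory receptors in blood cells, and had -0.35 (SE 0.14, 95% interval -0.66 to -0.04) without overlap. Vegfa, the ligand of Kdr, had -0.01 (SE 0.10, 95% interval -0.23 to 0.21), and Gdf2, which encodes BMP9, had 0.11 (SE 0.12, 95% interval -0.16 to 0.37), these 3 also chosen after their values were seen.

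Markers of other liver cells were set beside these values. Of 22 Kupffer cell and macrophage markers 20 had lower and 2 higher values in A/J-12SM, with a median of -0.24. Over all genes 49.1% were higher in A/J-12SM. In the list 4 had an unadjusted p under 0.05, all lower, against 3.4% of all genes. The summed signal of the list after quantile normalization was 9463 to 11535 in A/J-12SM and 10735 to 13502 in A/J arrays. Marco, a scavenger receptor, had -0.66 (SE 0.42, 95% interval -1.60 to 0.29), and Aif1, a calcium-binding protein of macrophages, had -0.59 (SE 0.21, 95% interval -1.06 to -0.13). The other 3 past that level were Cd5l (-0.43), Mpeg1 (-0.46) and C1qa (-0.35), named after their values were seen. No macrophage marker was at 0 in any array, since MAS 5 gives a positive signal to every probe set. The array means of this list were 0.12, -0.26 and -0.23 in A/J-12SM, against -0.05, 0.29 and 0.13 in A/J, so its first A/J-12SM array lay among the A/J arrays. In that array the brighter Lyve1 set read 6.11, with 5.92 and 6.21 in the other A/J-12SM arrays, so this comparison rests on 1 array. The part of macrophage RNA in the values of Lyve1 and Fcgr2b was not tested. Of 18 stellate cell and fibroblast markers 16 had higher values, with a median of 0.08, and of 0.02 without the third A/J-12SM array. By array the means of these markers were 0.03, -0.06 and 0.25 in A/J-12SM, against -0.16, -0.02 and -0.05 in A/J, with overlap. Gfap, a filament protein of stellate cells, was at 0.68 (SE 0.35) and Lum, the matrix protein lumican, at 0.64 (SE 0.23). In this list 2 genes, Lum and Reln, had an unadjusted p under 0.05, both higher, against 3.39% of all genes in this direction. Reln, a secreted matrix protein, was at 0.46 (SE 0.13) without overlap and was named after its value was seen. The 11 hepatocyte markers had a median of -0.01, with 5 higher and 6 lower, and of 0.18 with arrays centred on their medians. Among these, Pck1, an enzyme of gluconeogenesis, had 0.81 (SE 0.17, 95% interval 0.43 to 1.18) with adjusted p = 0.338 from limma, and G6pc, which releases glucose, had -0.33 (SE 0.18, 95% interval -0.74 to 0.08). The hepatocyte genes with an unadjusted p under 0.05 were Pck1 and Cps1, both higher, against 3.39% of all genes in this direction. Cps1, an enzyme of the urea cycle, was at 0.28 (SE 0.09) without overlap and was named after its value was seen.

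The direction of the small differences depended on how the arrays were brought to one scale. Under the values as deposited 9 of the 10 markers were lower in A/J-12SM and the median was -0.22, the same as the median shift of all probe sets on that scale. Relative to this shift, Fcgr2b (0.17) stayed above and Lyve1 (-0.68) below the other markers. With the arrays centred on their medians or scaled to 1 trimmed mean the median of the markers was 0.02 and -0.01, and Fcgr2b was at 0.41 and 0.38. Under the deposited values the medians of the lists of other sinusoidal genes (-0.11), general endothelium (-0.19), partners (-0.19) and stellate cells (-0.14) were also below 0, and that of macrophage markers was -0.46.

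**Figure D4:**
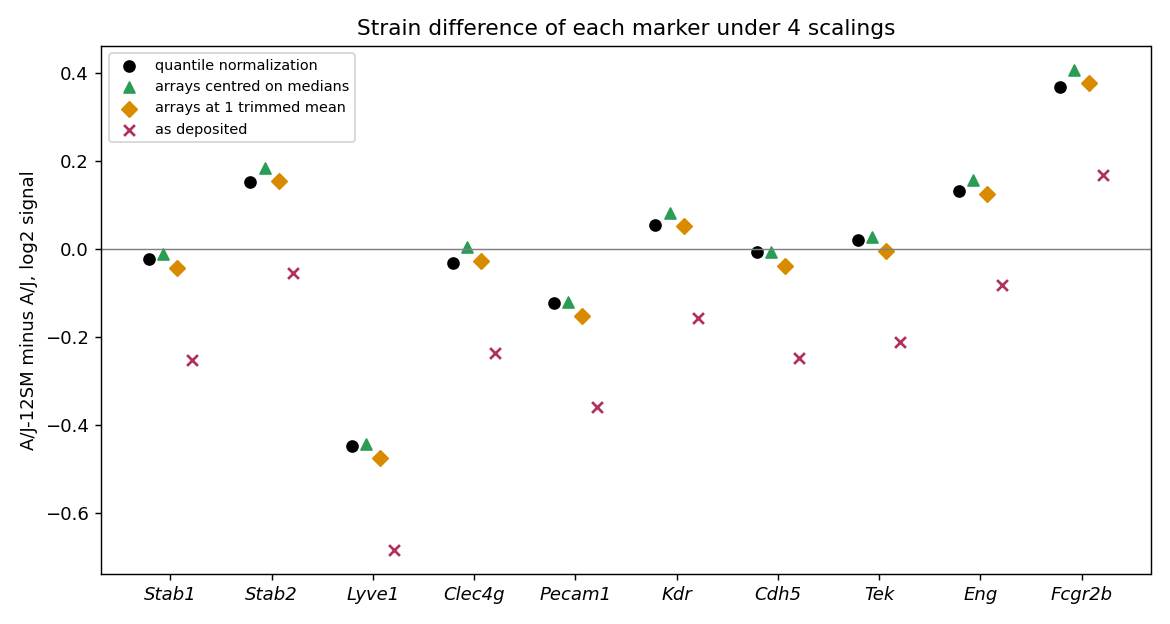
Difference in log2 signal (A/J-12SM minus A/J, y axis) for each marker by its brightest set (x axis) under quantile normalization, centring on array medians, scaling to 1 trimmed mean and the values as deposited. Crosses for the deposited values lie below the other symbols in every gene, Fcgr2b is above 0 and Lyve1 below 0 under all 4.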

How the data were processed

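Liver RNA of male A/J-12SM and A/J mice was hybridized to 6 Affymetrix arrays with 1 colour each (3 for either strain), with strain and replicate taken from the labels. The authors deposited intensity values, 1 linear MAS 5 signal per probe set and array (per the submitters' processing notes). For the software version and the scaling target, nothing is stated in the sources used here. As overall array brightness differed by strain, log2 signals were quantile normalized.

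Under R 4.3.3, limma 3.58.1 was used to fit a model of strain alone (trended eBayes) over 45037 probe sets after 64 controls were left out. Benjamini-Hochberg adjustment ran over all these probe sets, and calls were made at an adjusted p under 0.05. P-values measure the spread between pools of mice. Steps were tested on simulated data. Gene names came from the platform annotation, updated by gene ID through RefSeq (GRCm38.p6), with 34741 of 34945 single-gene probe sets matched. The brightest probe set over 6 arrays stood for each gene. Depth does not apply to arrays, and their number limits the precision. Replicates had a median SD (log2) of 0.21 in the brighter part of probe sets (median and above) and 0.86 below it.

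All 10 markers are described. In every other list, up to 4 called genes or, with none called, the 2 with the largest difference at or above the median brightness are named, and for likeness 5 genes. The lists cover other endothelial genes, ligands and partners of the markers, and cells of other types. The markers, lists and settings were chosen with earlier results of these data known. Listed genes that matched no probe set by name were not analysed here. Plots came from matplotlib 3.10.9 (Python 3.11.15).

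Alternatives were other scalings, an offset, a filter on dim probe sets, 1 prior variance, the methods' t-test, a replicate block, each array left out, and averaging all sets of a gene. The replicate numbers were checked for pairing. Deviations from the strain means of same-numbered arrays correlated by -0.01, 0.01 and 0.03, so the numbers were not taken to pair arrays.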

Additional observations from a re-analysis of the deposited data

How the results depend on the processing

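None of the 10 markers was called under any of the 15 alternatives, and Fcgr2b, Lyve1 and Pecam1 kept their direction in all 15. Of these, 1 prior variance, the methods' t-test, the replicate block and the filter on dim probe sets could not change a difference, only its p-value. Adjusted p ranged from 0.414 to 0.987 for Fcgr2b and from 0.254 to 0.987 for Lyve1 (limma or the methods' t-test). Under the values as deposited Eng was at -0.082, Kdr at -0.16, Stab2 at -0.054 and Tek at -0.21. Tek was at -0.0030 with arrays scaled to 1 trimmed mean, and Clec4g at 0.0044 with arrays centred on their medians. When all sets of a gene were averaged, dim ones included, Cdh5 was at 0.19 and Clec4g at 0.37. With single arrays left out the differences ranged from -0.26 to 0.17 for Cdh5, from -0.12 to 0.11 for Stab1 and from -0.013 to 0.071 for Tek. The median of the markers was -0.22 as deposited, -0.015 with 1 trimmed mean, 0.10 with averaged sets, and -0.016 to 0.069 with single arrays left out, highest without the third A/J-12SM array. Their array mean differed by -0.21 as deposited, by 0.057 with averaged sets, and by 0.0016 to 0.025 with single arrays left out. Over all probe sets 25 were called, 47 as deposited, 1 with 1 prior variance, 1 by the methods' t-test, and 6 to 23 with single arrays left out. With the replicate number as a block 28 were called, and no marker. The cause of these changes was not tested.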

Other observations

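Most lymphocyte and bile duct markers were dim on these arrays. Of 12 measured lymphocyte markers 2 were at or above the median brightness, and the list had 4 higher and 8 lower values in A/J-12SM (median -0.25, and 0.24 with dim probe sets left out). Cd8a of T cells had a difference of -0.36 (SE 0.67) and Ms4a1 of B cells, which also express Fcgr2b, had 0.24 (SE 0.33). Of 7 measured bile duct markers 1 was at or above the median brightness, Epcam, an adhesion molecule of epithelial cells, at -0.60 (SE 0.43), and the median was -0.43, but 0.04 without the first A/J-12SM array and 0.18 with all sets of a gene averaged. Of 11 measured platelet and blood cell markers 7 were at or above the median brightness, and 4 had higher and 7 lower values (median -0.11). In this list Alas2, the first enzyme of heme synthesis in red cells, had log2 signals of 10.29, 10.19 and 9.89 in A/J-12SM, against 10.49, 10.75 and 10.46 in A/J arrays, a difference of -0.44 (SE 0.12, adjusted p = 0.575 from limma), and S100a9 of neutrophils had 0.37 (SE 0.37). Krt7, a dim keratin of bile duct cells named after its value was seen, had -2.22 (SE 0.90). None of the genes in these lists was called by limma, and 2 had an unadjusted p under 0.05, where 6.78% of all genes did.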
